A study of Rattus norvegicus with 8 samples.

Results

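NRF2, encoded by Nfe2l2, is the transcription factor that switches on antioxidant and detoxifying genes, and 37 genes were taken here: its known targets, their regulators and the main antioxidant enzymes. Each was chosen by name, as the gene name that the array files give to a non-control spot, and all 37 names were found among 36174 gene names, on 51 probes. Of the 37, 32 could be tested among 15650 genes: 4 (Gclm, Gsta3, Gstm1 and Gstm2) were not well above background on any array, and the only probe of Sod1 had an outlier spot on 1 array. RNA came from NR8383, a line of rat alveolar macrophages started from cells washed out of a normal rat lung, grown with fetal bovine serum, penicillin, streptomycin and amphotericin B, and harvested 48 h after seeding. The groups were cells at a high passage number, passage 200 (P200), and at a low one, passage 20 (P20), with 4 biological replicates each, on 8 single-colour Agilent arrays. Both groups are the same single line, which grows as attached and floating cells together, with no treatment named in the labels. The labels do not say whether the replicates came from separately kept cultures, so p-values measure the spread between these samples.

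In resting cells the protein KEAP1 holds NRF2 and passes it to a ubiquitin ligase for destruction, and oxidants or electrophiles that modify KEAP1 let NRF2 reach the nucleus. There it pairs with a small MAF protein on antioxidant response elements beside genes for glutathione synthesis, quinone reduction, haem breakdown, iron storage and NADPH supply. Alveolar macrophages take up inhaled particles and dying cells, produce oxidants, and are known to depend on these enzymes. A level below is the log2 processed signal of a probe less the 75th percentile of its array, and a change is the P200 mean less the P20 mean on that scale, given ± its standard error (SE). Means are given ± SD over 4 arrays.

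Of the 32 tested members, 4 fell at P200, 1 rose and 27 did not pass the test (limma, Benjamini-Hochberg adjusted p under 0.05 over all genes). Over all genes tested, 5.62% were called lower and 5.83% higher, 11.5% in either direction. The 4 that fell were Srxn1, Hmox1, Gclc and Gss, and the 1 that rose was Ephx1. No member changed by as much as 1 log2 unit. The median change over the tested members was -0.03, beside 0.00 (0.00356) over all genes, and 19 members lay below 0 and 13 above it. All 5 called members had every array of one group on the same side of every array of the other, which is likely for any gene picked by a small p-value. Over all 32 tested members, P200 lay wholly above P20 for 2 and wholly below it for 5. The shares of all genes were 9.65% and 9.8%, or 19.5% in either direction.

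All arrays were on 1 slide and read in 1 scan, and between 51.0% and 54.5% of non-control spots per array were well above background, with 0 saturated. In a principal component analysis of all tested genes, P200 and P20 arrays separated on component 1 (60.1% of variance). On component 2 (14.4%) P200 replicate 4 lay at -31.1 while the other P200 arrays lay between 4.61 and 19.3. Of 14 macrophage markers 11, among them Cd68, Ptprc, Spi1 and Csf1r, were well above background on all 8 arrays. Adgre1 and Cd163 were so on none, and Marco on 1 P200 array. The markers Itgam and Cd14 fell (-0.78 and -0.91, limma adjusted p = 0.00528 and 0.00179). The summed linear signal of the 14 ran from 263 to 285 times the 75th percentile of the array in P200 arrays and from 281 to 323 times in P20 arrays, and the part of this in the results below was not tested. Of 6 lung epithelial markers 5 were above background on no array. Of 3 fibroblast, 3 endothelial and 3 lymphocyte markers on the array, 2, 2 and 1 were above background on all 8 arrays (Col1a2 and Dcn, Cdh5 and Pecam1, Cd3d), and none of these 5 passed the limma test, with adjusted p between 0.188 and 0.834. In RNA from whole cultures, fewer cells of a kind and less RNA per cell cannot be told apart.

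The start regions of the members are shown because NRF2 and its MAF partner bind the sequence TGACNNNGC or TGAGNNNGC, in which N is any base. RefSeq promoters of build GRCr8, 250 bases before to 50 after a gene's start, were held for 32 of the 37 members. Of those, 15 (46.9%) held either form on either strand, against 27.1% of 27457 promoters of all genes. Taken apart, TGACNNNGC was in 28.1% of member promoters against 12.2% of all, and TGAGNNNGC in 18.8% against 17.2%. The forms TGACTCAGC and TGAGTCAGC, which also contain the AP-1 site TGACTCA or TGAGTCA, were rarer: 0.412% and 0.35% of all promoters held them, 4.53% held the AP-1 site, and they were in the windows of Gstp1, Me1 and Prdx1 (TGACTCAGC) and of Srxn1 (TGAGTCAGC). No window was held for Gsr, Hmox1, Ftl1, Fth1 and Txnip. Of the 4 called members with a window, 1 (25%), Srxn1, held either form, beside 27.1% of all promoters. Gclc, Gss and Ephx1 held neither. The windows of Srxn1, Prdx1, Gstp1 and Me1, and as an example without a match that of Gclc, are printed 5′ to 3′ on the strand of the gene, with matches in capitals.
Srxn1, chr3:161064562-161064861, plus strand: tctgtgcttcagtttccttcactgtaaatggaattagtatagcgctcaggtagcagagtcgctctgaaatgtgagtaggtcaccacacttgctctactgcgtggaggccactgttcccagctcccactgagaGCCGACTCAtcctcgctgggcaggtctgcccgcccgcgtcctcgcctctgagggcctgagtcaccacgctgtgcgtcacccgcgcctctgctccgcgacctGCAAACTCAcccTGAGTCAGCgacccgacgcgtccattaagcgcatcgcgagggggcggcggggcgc
Prdx1, chr5:135383656-135383955, plus strand: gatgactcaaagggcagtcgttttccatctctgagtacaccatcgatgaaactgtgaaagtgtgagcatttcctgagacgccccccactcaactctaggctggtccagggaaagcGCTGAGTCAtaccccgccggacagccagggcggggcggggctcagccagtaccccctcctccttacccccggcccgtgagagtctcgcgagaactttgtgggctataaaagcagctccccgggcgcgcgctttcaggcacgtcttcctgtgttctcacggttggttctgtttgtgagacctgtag
Gstp1, chr1:210769656-210769955, minus strand: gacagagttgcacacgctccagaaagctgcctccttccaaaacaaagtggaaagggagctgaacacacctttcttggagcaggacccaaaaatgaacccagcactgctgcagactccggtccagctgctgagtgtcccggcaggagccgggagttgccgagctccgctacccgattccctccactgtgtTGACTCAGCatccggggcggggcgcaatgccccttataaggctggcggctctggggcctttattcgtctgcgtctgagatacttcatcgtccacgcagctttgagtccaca
Me1, chr8:96540195-96540494, minus strand: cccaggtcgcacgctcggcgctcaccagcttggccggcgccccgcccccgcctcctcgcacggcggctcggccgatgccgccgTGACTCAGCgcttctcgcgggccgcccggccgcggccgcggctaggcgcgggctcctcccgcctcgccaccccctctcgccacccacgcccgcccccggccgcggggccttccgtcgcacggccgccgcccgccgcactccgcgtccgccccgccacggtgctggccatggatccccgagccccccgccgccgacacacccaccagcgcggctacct
Gclc, chr8:87510226-87510525, plus strand: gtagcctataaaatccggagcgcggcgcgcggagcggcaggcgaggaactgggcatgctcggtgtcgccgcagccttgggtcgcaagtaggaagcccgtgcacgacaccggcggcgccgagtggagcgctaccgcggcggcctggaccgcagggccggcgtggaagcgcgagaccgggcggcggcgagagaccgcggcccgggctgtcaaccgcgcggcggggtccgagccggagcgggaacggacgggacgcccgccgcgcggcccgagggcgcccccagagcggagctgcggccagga
Positions count from the start site, with negative ones before it. The Srxn1 window held 3 matches, whose first bases lie at -118, -17 and -5, the first 2 of them on the opposite strand. The match in Prdx1, also on the opposite strand, lies at -135, that in Gstp1 at -61 and that in Me1 at -167. A match is a run of letters and not a measured site, and elements farther away lie outside these windows.

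Glutathione is made from cystine, which Slc7a11 imports, by the ligase Gclc with its modifier Gclm, then by the synthase Gss, and the reductase Gsr regenerates it. Gclc, the rate-limiting catalytic subunit, fell. Its log2 level was 0.94, 1.26, 1.06 and 1.12 in P200 arrays, against 1.5, 1.56, 1.39 and 1.51 in P20 arrays, so that every P200 array lay below every P20 array. The change was -0.39 ± 0.08, adjusted p = 0.0136, or 1.31-fold lower (limma, n = 4 arrays per group), from a probe on chromosome 8 at 82762574 to 82762633 of rn4, the build of the array files. Gss, which adds glycine in the last step, had log2 levels of -0.50, -0.64, -0.54 and -0.37 in P200 arrays, against -0.30, -0.16, -0.15 and -0.15 in P20 arrays. It fell by 0.32 (SE 0.07, 1.25-fold lower, adjusted p = 0.0254), with the highest P200 array just under the lowest P20 array. This call was the least stable of the falls. The limma adjusted p of Gss was 0.0713, 0.0794 and 0.0705 without P20 replicates 2, 3 and 4, and 0.0504, 0.0644 and 0.0746 without P200 replicates 1, 2 and 3. The importer Slc7a11 did not pass. It averaged 2.68 ± 0.29 in P200 arrays and 2.72 ± 0.05 in P20 arrays (SD, n = 4 each), a change of -0.04 ± 0.13, adjusted p = 0.905. Its P200 replicate 1, at 2.26, lay below all other arrays, while P200 replicates 2 and 3 lay above all P20 arrays and replicate 4 within their range. Gsr averaged -1.15 ± 0.11 in P200 arrays and -1.25 ± 0.09 in P20 arrays, and its change of 0.11 ± 0.08, adjusted p = 0.474 did not pass. Gclm gave signals between -8.41 and -6.07 on its only probe, none well above background.

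**Figure D1:**
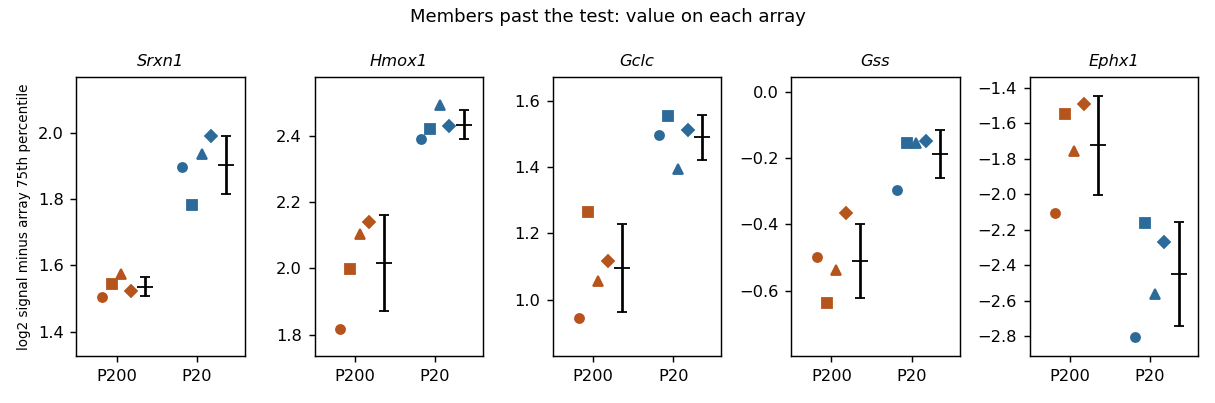
Log2 level (signal less the 75th percentile of its array) of the 5 members past the test on each array, P200 left of P20. Symbols are replicate numbers (circle 1, square 2, triangle 3, diamond 4) and the black bar is the mean with its SD over 4 arrays. No P200 array overlaps a P20 array in any panel: P200 lies lower for Srxn1, Hmox1, Gclc and Gss and higher for Ephx1.

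Enzymes that conjugate or reduce foreign compounds and lipid peroxidation products gave 1 call among 6 tested, where 11.5% of all genes were called in either direction. Ephx1, the microsomal epoxide hydrolase that opens reactive epoxides, rose. Its log2 level was -2.11, -1.55, -1.76 and -1.49 in P200 arrays, against -2.81, -2.16, -2.56 and -2.27 in P20 arrays, and the lowest P200 array stood just above the highest P20 array. The change was 0.73 ± 0.18, adjusted p = 0.0315, 1.65-fold higher, the largest of the 32 in size, from a probe on chromosome 13 at 96729072 to 96729131 of rn4. Array by array this call was not stable. Its limma adjusted p was 0.0744 and 0.0904 without P20 replicates 1 and 3, and 0.0842, 0.0726 and 0.0741 without P200 replicates 2, 3 and 4. Within slide row 1, which held 3 P200 arrays and 1 P20 array, its log2 difference was 1.21, and within row 2, with 1 P200 array and 3 P20 arrays, 0.22. With slide row as a block its adjusted p was 0.103, and that of Gss 0.107.

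The other 5 tested members of this kind did not pass. Nqo1, the quinone reductase often used as a readout of NRF2, had log2 levels of -2.08, -2.09, -1.97 and -1.99 in P200 arrays, against -1.93, -1.92, -1.88 and -2.03 in P20 arrays. Its change was -0.09 ± 0.06, adjusted p = 0.432, with a 95% interval of -0.23 to 0.05, and the groups overlapped. Among the glutathione transferases, Gstp1 averaged 2.27 ± 0.33 in P200 arrays and 2.28 ± 0.09 in P20 arrays, a change of -0.01 ± 0.15, adjusted p = 0.987. Its start region is among those printed above. Gsta1 had a change of -0.09 ± 0.09, adjusted p = 0.632 and Gsta4 of 0.01 ± 0.16, adjusted p = 0.988, neither past the test. A further Gsta1 probe gave -0.19 (SE 0.09, adjusted p = 0.227 over all probes). Akr1b8, an aldo-keto reductase, averaged 5.62 ± 0.28 in P200 arrays and 5.59 ± 0.12 in P20 arrays, and its change was 0.03 ± 0.14, adjusted p = 0.931. Its other probe gave -0.22 (SE 0.10, adjusted p = 0.245 over all probes). The transferases Gsta3, Gstm1 and Gstm2 were not well above background on any array of either group.

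Of the haem and iron members, 1 of 4 passed, where 11.5% of all genes were called in either direction. Hmox1, the inducible enzyme that opens the haem ring and releases iron, had log2 levels of 1.82, 2.00, 2.10 and 2.14 in P200 arrays, against 2.39, 2.42, 2.49 and 2.43 in P20 arrays. All 4 P200 arrays lay below all 4 P20 arrays, whose SD was 0.04 (P200 SD 0.14). The change was -0.42 ± 0.08, adjusted p = 0.0105, 1.34-fold lower, from a probe on chromosome 19 at 13969336 to 13969395 of rn4, and it passed without any single array. Blvrb, a biliverdin reductase, did not pass, with a change of -0.03 ± 0.08, adjusted p = 0.884. Blvra, the other biliverdin reductase, is on the wider list below and fell by 0.32 (SE 0.05, limma adjusted p = 0.00563). Blvra passed without any single array. It did not pass when signals were scaled to each array's median (adjusted p = 0.295) or with no filter on dim probes (0.107). The ferritin chains, which store the released iron, did not pass. Ftl1 averaged 7.28 ± 0.28 in P200 arrays and 7.25 ± 0.14 in P20 arrays and had a change of 0.03 ± 0.14, adjusted p = 0.928. Fth1 averaged 6.82 ± 0.44 in P200 arrays and 6.73 ± 0.12 in P20 arrays and had a change of 0.09 ± 0.20, adjusted p = 0.835. In Fth1 the P200 arrays held both the lowest value of all 8, 6.37 in replicate 1, and the highest, 7.38 in replicate 4. Another Fth1 probe was left out of the test for an outlier spot on P200 replicate 4 (7.03 if kept). It averaged 6.67 ± 0.16 in P200 replicates 1, 2 and 3 (SD, n = 3) and 6.72 ± 0.16 in the P20 arrays (SD, n = 4). A further Ftl1 probe is placed on another chromosome by the files (13, against 1) and gave 0.13 (SE 0.17). The ferritin probes were not shown to separate these genes from their many gene copies.

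**Figure D2:**
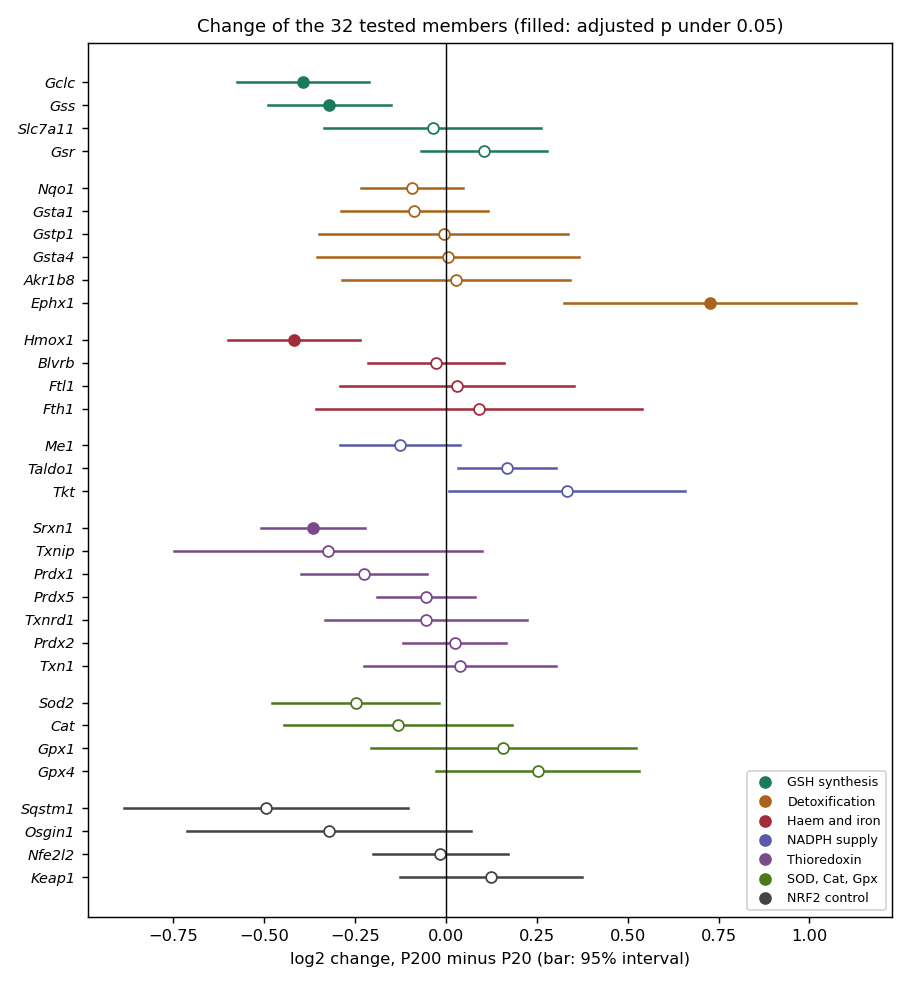
Log2 change of each tested member, P200 minus P20, with its 95% interval from limma (n = 4 arrays per group), grouped and coloured by role. Filled circles are the 5 members with an adjusted p under 0.05. The points run from -0.49 (Sqstm1) to 0.73 (Ephx1), and 27 of the 32 circles are open.

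NADPH, which reduces glutathione and thioredoxin, is supplied in part by the pentose phosphate enzymes Taldo1 and Tkt and by malic enzyme, Me1. None of the 3 passed. Taldo1 had log2 levels of 4.02, 4.11, 3.98 and 4.01 in P200 arrays, against 3.82, 3.93, 3.82 and 3.88 in P20 arrays. Its P200 arrays all lay above its P20 arrays, as those of 9.65% of all genes did, and the change was small (0.17 ± 0.06, adjusted p = 0.117). Tkt had log2 levels of 6.48, 6.72, 6.55 and 6.82 in P200 arrays, against 5.91, 6.35, 6.54 and 6.46 in P20 arrays. Its P20 replicate 1 lay far below the rest, the lowest P200 array lay within the P20 range, and the change was 0.33 ± 0.14, adjusted p = 0.199. Me1 had a change of -0.13 ± 0.07, adjusted p = 0.351.

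In the thioredoxin system, Txn1 is reduced by Txnrd1 and in turn reduces the peroxiredoxins, which remove peroxides. Srxn1, sulfiredoxin, restores peroxiredoxins that peroxide has over-oxidised, and it fell. Its log2 level was 1.5, 1.54, 1.57 and 1.52 in P200 arrays, against 1.90, 1.78, 1.94 and 1.99 in P20 arrays. The P200 arrays, with an SD of 0.03 against 0.09 in P20 arrays, all lay below the P20 arrays. The change was -0.37 ± 0.06, adjusted p = 0.00608, 1.29-fold lower, with the smallest adjusted p of the members, from a probe on chromosome 3 at 142462543 to 142462602 of rn4. It passed without any single array, and its difference was -0.35 within slide row 1 and -0.40 within row 2. Prdx1, a substrate of sulfiredoxin and itself an NRF2 target, had log2 levels of 3.31, 3.38, 3.36 and 3.10 in P200 arrays, against 3.57, 3.46, 3.5 and 3.52 in P20 arrays. Its groups did not overlap, with P200 the lower, but its change of -0.23 ± 0.08, adjusted p = 0.101 did not pass. For 9.8% of all genes every P200 array lay below every P20 array.

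The rest of the thioredoxin system did not pass. Txn1 had a change of 0.04 ± 0.12, adjusted p = 0.883 and Txnrd1 of -0.05 ± 0.12, adjusted p = 0.84. Prdx2 had a change of 0.02 ± 0.06, adjusted p = 0.859 and the mitochondrial and peroxisomal Prdx5 of -0.05 ± 0.06, adjusted p = 0.656. For Prdx2 and Prdx5 the 95% intervals were narrow, -0.12 to 0.17 and -0.19 to 0.08. Txnip, which binds and inhibits thioredoxin, had log2 levels of -0.89, -1.61, -1.48 and -1.79 in P200 arrays, against -1.28, -1.03, -0.92 and -1.24 in P20 arrays. P200 replicate 1 was the highest of all 8 arrays and the other 3 P200 arrays were the lowest. Its change of -0.32 ± 0.19, adjusted p = 0.354 did not pass, whereas without P200 replicate 1 it was -0.51 with an adjusted p of 0.0328.

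Superoxide dismutases turn superoxide into hydrogen peroxide, and catalase and the glutathione peroxidases remove it. Sod2, the mitochondrial form, had log2 levels of 2.50, 2.26, 2.54 and 2.21 in P200 arrays, against 2.64, 2.53, 2.80 and 2.54 in P20 arrays. The groups overlapped by a narrow margin, and the change of -0.25 ± 0.10, adjusted p = 0.172 did not pass. Sod1, the cytosolic form, was left out of the test because its spot on P20 replicate 2 was marked an outlier. Its log2 level was 4.86, 4.89, 4.85 and 4.97 in P200 arrays, against 4.82, 4.92 and 4.92 in P20 replicates 1, 3 and 4. The groups overlapped, and with the outlier spot kept the change was 0.11 ± 0.11, adjusted p = 0.595. Cat had a change of -0.13 ± 0.14, adjusted p = 0.636, Gpx1 of 0.16 ± 0.16, adjusted p = 0.624 and Gpx4, which reduces lipid peroxides in membranes, of 0.25 ± 0.12, adjusted p = 0.261. The second probes of Gpx1 (0.17, SE 0.15) and Gpx4 (0.14, SE 0.10) had the same sign.

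**Figure D3:**
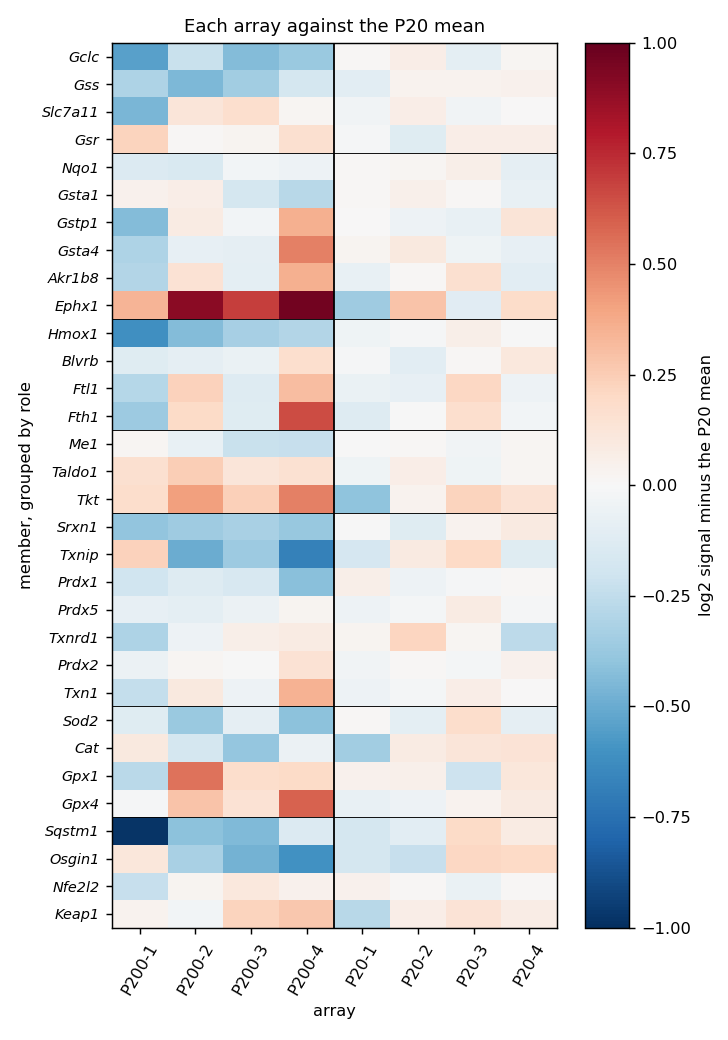
Log2 level of each tested member on each array less its mean over the P20 arrays, P200 arrays on the left, with members grouped by role. Red is above and blue below the P20 mean, on a scale that ends at 1 log2 unit either way. Srxn1, Hmox1, Gclc and Gss are blue on all 4 P200 arrays and Ephx1 is red, while Fth1 and Gstp1 lie on both sides of the P20 mean. Sqstm1 is also blue on all 4 P200 arrays, to differing degrees.

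The regulators themselves did not pass the test. Nfe2l2 had log2 levels of 2.41, 2.67, 2.74 and 2.69 in P200 arrays, against 2.68, 2.65, 2.58 and 2.65 in P20 arrays. The groups overlapped and the change was -0.02 ± 0.08, adjusted p = 0.938, with a 95% interval of -0.20 to 0.17. Keap1 had log2 levels of -1.99, -2.05, -1.81 and -1.76 in P200 arrays, against -2.31, -1.96, -1.89 and -1.95 in P20 arrays, which also overlapped, and its change was 0.12 ± 0.11, adjusted p = 0.573 (interval -0.13 to 0.38). These are transcript levels, and NRF2 is controlled mainly through the stability of its protein, which was not measured here.

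Sqstm1 encodes p62, an autophagy receptor that binds KEAP1 and is itself an NRF2 target, and its 3 probes disagreed. The brightest had log2 levels of 2.88, 3.45, 3.42 and 3.72 in P200 arrays, against 3.69, 3.76, 4.05 and 3.94 in P20 arrays. Only P200 replicate 4 reached into the P20 range, and the change of -0.49 ± 0.17, adjusted p = 0.112 did not pass. A second probe gave -0.38 (SE 0.12, adjusted p = 0.0795 over all probes), and here every P200 array lay below every P20 array. The third, which the files assign to another transcript, gave 0.21 (SE 0.10, adjusted p = 0.259). The brightest probe passed in the deposited matrix values (-0.51, adjusted p = 0.0322) and with array weights (-0.50, adjusted p = 0.0357). Osgin1, an inhibitor of growth induced by oxidative stress, had a change of -0.32 ± 0.17, adjusted p = 0.314.

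**Figure D4:**
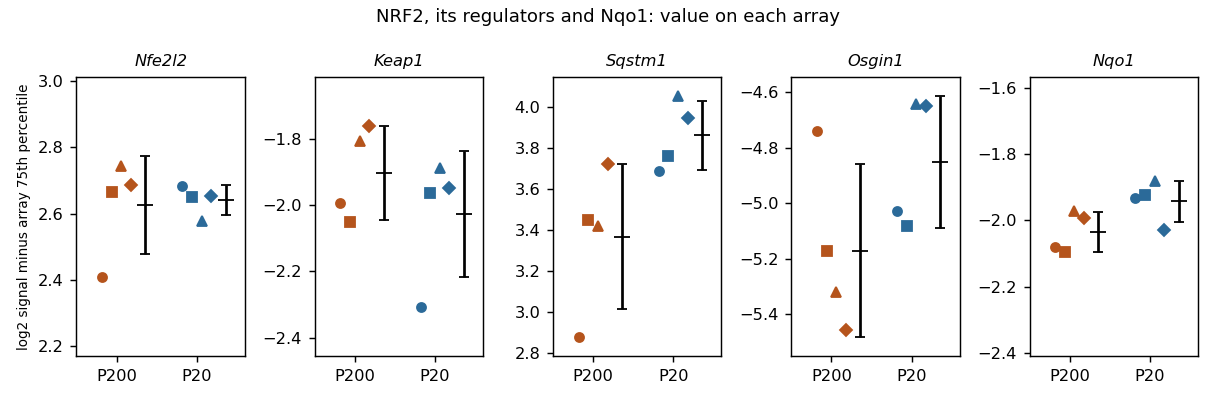
Log2 level (signal less the 75th percentile of its array) of Nfe2l2, Keap1, Sqstm1 (its brightest probe), Osgin1 and Nqo1 on each array, P200 left of P20. Symbols are replicate numbers (circle 1, square 2, triangle 3, diamond 4) and black bars are the mean with its SD over 4 arrays. P200 and P20 arrays overlap in all 5 panels.

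A wider list held 99 other genes of the same pathways, of which 80 were tested. Of these, 77 were well above background on all 8 arrays, and of those, 9 fell, 6 rose and 62 did not pass (limma). Of all genes tested, which include some not above background on every array, 5.62% were called lower and 5.83% higher. In a fit of only the 14714 genes above background on all 8 arrays, limma called 676 lower and 805 higher, 10.1% in either direction. The median change of the 77 was 0.00 (0.00447). Among the 11 partners and regulators of NRF2 tested, 3 fell and 1 rose, beside the same 5.62% and 5.83% of all genes. The rise was that of Rbx1, by 0.33 ± 0.06 (limma adjusted p = 0.00641). Rbx1 passed without any single array and in 19 of 21 other settings. The falls were in transcripts of the 3 small MAF proteins through which NRF2 binds DNA, and the proteins were not measured. Mafg had log2 levels of 1.27, 1.11, 1.01 and 0.96 in P200 arrays, against 1.33, 1.47, 1.48 and 1.52 in P20 arrays. Maff had log2 levels of -2.64, -2.96, -2.96 and -2.72 in P200 arrays, against -2.29, -2.52, -2.18 and -2.26 in P20 arrays. Mafk had log2 levels of -4.03, -4.03, -3.78 and -3.99 in P200 arrays, against -3.68, -3.32, -3.68 and -3.55 in P20 arrays. For each of the 3 every P200 array lay below every P20 array, as for 9.8% of all genes. The changes were -0.36 ± 0.08, adjusted p = 0.0251 for Mafg, -0.51 ± 0.10, adjusted p = 0.0155 for Maff and -0.40 ± 0.10, adjusted p = 0.035 for Mafk. These calls differed in stability. Maff lost its call without P20 replicate 3 (adjusted p = 0.0522). Mafg lost it without P20 replicates 2, 3 and 4 (0.0682, 0.0768 and 0.0717) and P200 replicates 2 and 3 (0.0564 and 0.0769). Mafk lost it in 7 of the 8 fits that leave out an array and kept it without P200 replicate 3, with adjusted p from 0.0509 to 0.0901 in those 7. With slide row as a block none of the 3 passed (limma adjusted p = 0.0719 for Maff, 0.0718 for Mafg and 0.119 for Mafk).

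Among the other glutathione genes above background on all 8 arrays, 2 of 20 fell and 2 rose, where 5.62% of all genes tested were called lower and 5.83% higher. Gsta5, an alpha-class transferase, had log2 levels of -5.09, -4.90, -5.16 and -4.98 in P200 arrays, against -4.17, -3.96, -4.07 and -3.98 in P20 arrays. The groups were wide apart relative to their spread, and the change was -0.99 ± 0.08, adjusted p = 7.19e-05, 1.98-fold lower, past the test in all 21 other settings, over which it ran from -1.03 to -0.44. Gsta2 and Gstk1, a transferase of mitochondria and peroxisomes, were well above background on all 4 P20 arrays and on no P200 array. They entered the test only through the P20 arrays, so their limma values are a description and they are left out of the counts above. On processed signal, Gsta2 was at least 3.29-fold lower (log2 means -6.87 in P200 arrays and -4.81 in P20 arrays). Gstk1 was at least 2.90-fold lower (-7.61 in P200 arrays and -5.31 in P20 arrays). These bounds set each P200 value at the lowest signal well above background on its array, or at its own value if higher. They hold for the processed signal only, and other background handling below gave smaller changes for both genes. The fitted adjusted p of 0.0221 for Gsta2 was 0.0638, 0.0632 and 0.0549 without P20 replicates 1, 2 and 3. With normexp background correction the changes were -0.53 for Gsta2 and -0.43 for Gstk1 (limma adjusted p = 0.0793 and 0.315). The fitted adjusted p of 0.00896 for Gstk1 was 0.112 in the deposited matrix values, with a change of -0.60. Rat alpha-class transferases are close in sequence, and the probes of Gsta1, Gsta2 and Gsta5 were not shown to separate them.

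Other named genes moved in both directions. Slc48a1, which carries haem out of the phagolysosome, had log2 levels of 0.17, 0.17, 0.13 and 0.18 in P200 arrays, against -0.36, -0.24, -0.34 and -0.22 in P20 arrays. It rose by 0.45 ± 0.06, adjusted p = 0.00126, in all 21 other settings too. Slc11a1, a metal exporter of the phagosome, had log2 levels of 1.23, 1.63, 1.73 and 1.65 in P200 arrays, against 1.99, 2.03, 2.03 and 2.26 in P20 arrays. It fell by 0.52 (SE 0.12, adjusted p = 0.0243), but not without P20 replicates 2, 3 or 4 (0.0549, 0.0595 and 0.066). Oplah, which opens the 5-oxoproline formed as glutathione is broken down, rose by 0.78 ± 0.12, adjusted p = 0.00388, 1.71-fold, in all 21 other settings too. Akr7a3, a reductase of aflatoxin aldehyde, rose by 0.76 ± 0.16, adjusted p = 0.0161, and its adjusted p was 0.0515 and 0.0504 without P20 replicates 1 and 2.

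The count of falls on the wider list varied as single arrays were left out, and so did that over all genes. With Gsta2 and Gstk1 counted, the wider list gave 11 over all arrays, and 6, 4, 4 and 5 without P20 replicates 1, 2, 3 and 4. Over all genes falls numbered 879 (5.62%) with all arrays, and 642, 611, 576 and 615 in those fits. Without P200 replicate 2 or 3 the wider list gave 7, and all genes 692 and 670. The count of rises was 3 without P20 replicate 2, against 6 with all arrays, and over all genes 718 against 913. The scaling mattered as well: when signals were scaled to each array's median instead, 63.6% of all called genes were higher at P200, against 50.9%, and Srxn1, Hmox1, Gclc and Gss kept their direction but did not pass (limma adjusted p = 0.195, 0.107, 0.22 and 0.186). The median change of all genes was 0.07 under that scaling.

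**Figure D5:**
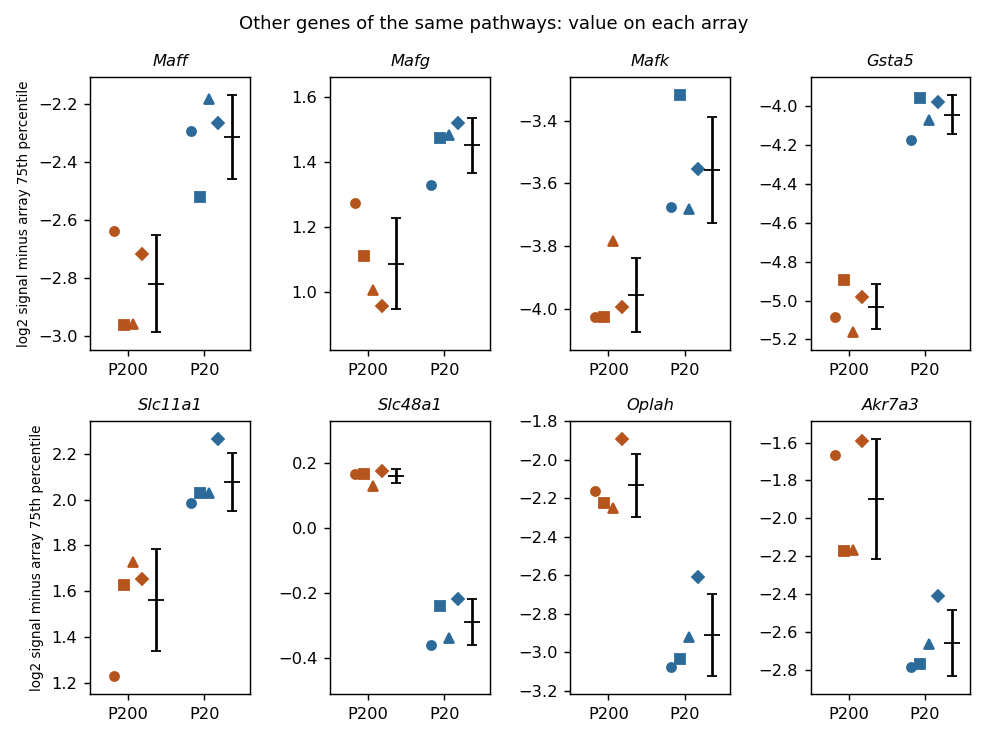
Log2 level of 8 further genes past the test on each array, P200 left of P20, with symbols for replicate numbers (circle 1, square 2, triangle 3, diamond 4) and black bars for the mean with its SD over 4 arrays. P200 lies lower for Maff, Mafg, Mafk, Gsta5 and Slc11a1 and higher for Slc48a1, Oplah and Akr7a3, with no overlap in any panel.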

How the data were processed

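Gene expression was measured in 4 P200 and 4 P20 samples on Agilent single-colour (Cy3) arrays. Feature Extraction 11.0.1.1 (Agilent) is named in the submitters' processing notes. Per the file headers, the deposited intensity of each spot is background-subtracted and detrended within its array, with surrogate values near background and no scaling between arrays. The authors' matrix table carries unprocessed median spot intensities. Its P200 columns 1, 2, 3 and 4 equal scanner files 2, 3, 4 and 1, so replicate numbers here are those of the scanner files.

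Control and outlier spots were left out, spots of a probe averaged, and log2 processed signal less the 75th percentile of the array was used. Of 45598 probes 84 had no usable spot on some array. A probe was kept if well above background (in at least 0.5 of its spots) on all 4 arrays of a group, which left 19458, and a gene name was represented by its brightest probe, which gave 15650 genes. P200 was set against P20 with limma 3.58.1 in R 4.3.3 (lmFit and eBayes without covariates). Tests were two-sided, and p-values were adjusted by Benjamini-Hochberg across the 15650 genes. The number of arrays limits the precision. The script was tested on simulated data. Of the 51 member probes, 48 matched the RefSeq table of GRCr8 by transcript and 3 by symbol, all under the same name.

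Members and lists were chosen with earlier results of these data known. Every member is named, and of the other pathway genes the 10 past the test with the largest change, Blvra and Rbx1. Alternatives were background correction, scaling, filter, probe choice, gene names, outlier spots, matrix values, slide row, replicate number, array weights and leaving out each array.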

Additional observations from a re-analysis of the deposited data

Results flagged for a closer look

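Among 64 sets of 4 arrays (32 members in 2 groups), 3 held an array whose gap to its nearest neighbour took up more of their whole range than Dixon's 95% critical value, which chance alone gives in about 1 in 20 sets. All 3 were P20 sets. Cat had a log2 level of -2.52 in P20 replicate 1, with the other P20 arrays from -2.09 to -2.04. Gss was at -0.30 in P20 replicate 1, with the others from -0.16 to -0.15. Without that array Gss still passed the test. Ftl1 was at 7.46 in P20 replicate 3, with the others from 7.17 to 7.20.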

How the results depend on the processing

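Counts of other pathway genes here include Gsta2 and Gstk1, and 9 were lower when probes had to be above background on all 8 arrays. Across 21 other settings no member reversed a called direction, and 23 results for single members lost a call and 3 gained one. Srxn1, Hmox1 and Gclc passed in 19 of 21 settings, Ephx1 in 14 and Gss in 11. With no filter on dim probes, which raised the genes tested to 36114, limma called 0 members lower and 0 higher (7 and 1 at an unadjusted p under 0.05), 1 other pathway gene lower and 2 higher, and 415 genes lower and 385 higher. In that fit the smallest adjusted p of a member past the test in the report was 0.0919. With the array median, 0 members were lower (5 at an unadjusted p under 0.05), 4 other pathway genes lower and 3 higher, and 421 genes lower. With slide row as a block, 0 members were higher (3 at an unadjusted p under 0.05), 5 other pathway genes lower and 585 genes lower. Leaving out single arrays gave 3 to 4 members lower and 0 to 1 higher, 4 to 11 other pathway genes lower and 3 to 5 higher, and 576 to 855 genes lower and 652 to 855 higher. The lowest of these, 576, came without P20 replicate 3. The cause of these shifts was not tested. The median change of the members ran from -0.09 to 0.04 over all settings.

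Replicate numbers were shared by both groups. Deviations from the group means correlated by 0.03, 0.13, -0.00384 and 0.28 for replicates 1 to 4. Arrays of different numbers were not compared, so these values cannot show whether the numbers pair the samples. No pairing was used in the main test. With the replicate block, 6 other pathway genes were lower, 3 members were lower and 1 higher, and Gss lost its call (limma adjusted p = 0.0601). Signals near background limit folds of the dimmest probes.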

Other observations

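The P200 arrays differed among themselves in these genes, and over all genes too. P200 replicate 1 was the lowest P200 array for 19 of the 32 tested members (59.4%), against 29.8% of all genes tested. It was the only P200 array in slide row 2 and had the highest 75th percentile of processed signal of all arrays, 1869. P200 replicate 4 was the highest for 17 of 32 (53.1%), near the 46.2% of all genes. That array had the lowest 75th percentile of processed signal, 979, with the others from 1349 to 1869, and the smallest array weight, 0.28. The part of this in these counts was not tested. In the 4 P20 arrays, replicate 1 was the lowest for 14 members (43.8%), against 33.9% of all genes. The SD over 4 arrays was larger in P200 than in P20 for 23 of the 32 members, with medians of 0.17 and 0.09 log2 units, against 0.14 and 0.11 over all genes. The widest P200 spreads, each on the probe used for the gene, were those of Fth1 (SD 0.44), Txnip (0.39), Sqstm1 (0.35), Gsta4 (0.35), Gpx1 (0.33) and Gstp1 (0.33).

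Of the 27 members that did not pass, 20 had a 95% interval that lay within 0.5 log2 units of 0 on both sides, and all 27 lay within 1 log2 unit. The widest bound was 0.88.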
